A study of Mus musculus with 9 samples.

Results

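Cytosolic sulfotransferases were followed through the livers of HP1-deficient mice by 9 genes of the family (Sult1a1, Sult1b1, Sult1c2, Sult1d1, Sult1e1, Sult2a1, Sult2a2, Sult3a1 and Sult5a1) and Papss2, which makes the sulfate donor. These 10 genes were chosen by symbol, and all 10 were found among the 22701 genes of the deposited table. RNA had been sequenced from livers of mice aged 5 weeks, and the strain background was labelled C57BL/6, 129svPas. The mice fell into 4 groups: WT (3 livers), HP1a_KO (genotype HP1a-/-, 2 livers), HP1ab_KO (HP1a-/- with HP1b deleted in the liver, 1 liver) and HP1ag_KO (HP1a-/- with HP1g deleted in the liver, 3 livers). By genotype, all 6 mutant livers therefore lacked HP1α, a chromatin protein that binds methylated histone tails in heterochromatin. No group lacked HP1β or HP1γ alone. Which Cre line made the liver deletions is not given in the sources used here. Each library came from a mouse with its own animal number, so p-values measure the spread between livers.

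Sulfotransferases attach a sulfonate group to small molecules, which makes most of them more soluble and easier to excrete in bile or urine. The donor is PAPS, which PAPS synthases such as Papss2 build from inorganic sulfate and ATP. In hepatocytes the Sult1 enzymes act mainly on phenols, catechols, thyroid hormones and estrogens, and the Sult2a enzymes on hydroxysteroids and bile acids. Transcripts of Sult2a1, Sult2a2 and Sult3a1 are known to be higher in the livers of female than of male mice.

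Several of these genes are close copies, which bears on how their reads can be told apart. The first 120 coding bases are shown for the Sult2a1 and Sult2a2 genes, for their neighbour Sult2a5, and for the more distant Sult3a1. Capitals mark bases that differ from Sult2a2 at the same place, with no gaps allowed. They were read from GENCODE transcripts of build GRCm38.

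Sult2a2: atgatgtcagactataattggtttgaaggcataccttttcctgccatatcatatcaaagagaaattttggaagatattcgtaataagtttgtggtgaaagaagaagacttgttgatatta
Sult2a1: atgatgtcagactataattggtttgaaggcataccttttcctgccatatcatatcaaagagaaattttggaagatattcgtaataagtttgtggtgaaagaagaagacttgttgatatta
Sult2a5: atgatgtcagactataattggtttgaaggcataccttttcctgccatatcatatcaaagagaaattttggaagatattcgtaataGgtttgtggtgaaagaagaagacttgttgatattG
Sult3a1: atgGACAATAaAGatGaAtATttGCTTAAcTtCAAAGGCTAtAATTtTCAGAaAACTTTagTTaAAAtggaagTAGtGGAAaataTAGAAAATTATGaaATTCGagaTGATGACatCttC

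Over this stretch Sult2a1 and Sult2a2 were identical, Sult2a5 differed at 2 bases and Sult3a1 at 82. Further on, coding bases 200 to 259 held 4 differences between the Sult2a1 and Sult2a2 sequences, shown in capitals in both.

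Sult2a1: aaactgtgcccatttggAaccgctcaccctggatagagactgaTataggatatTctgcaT
Sult2a2: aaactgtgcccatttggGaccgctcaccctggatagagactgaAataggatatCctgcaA

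In all, the coding parts of Sult2a1 and Sult2a2 matched at 97.9% of 582 aligned bases. The annotated Sult2a2 coding part is the shorter of the pair and lacks the stretch between coding bases 471 and 745 of Sult2a1. Of the stretches of 50 bases in the exons, 62.1% of those in Sult2a2 and 33.2% of those in Sult2a1 also occurred in another Sult gene. For Sult3a1 the share was 6.15%, all of it with Sult3a2, and for Sult1a1, Sult1b1, Sult1c2, Sult1d1, Sult1e1 and Sult5a1 it was 0. A read from a shared stretch could have been counted for either gene or for none, so the values of Sult2a1 and Sult2a2 are uncertain as single genes.

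Values below are the deposited normalised read counts (reads divided by 1 size factor per library). The shallowest library, HP1a_KO replicate 1, had 16266423 reads in genes and measures low genes least precisely. The other 8 had 26375545 to 36161177. Cbx5, the gene of HP1α, had 1235 ± 279 normalised reads in WT (SD, n = 3), 538 ± 53.3 in HP1a_KO (n = 2), 663 in HP1ab_KO and 743 ± 75.8 in HP1ag_KO (n = 3). Cbx1, the gene of HP1β, stood at 217 in HP1ab_KO against 917 ± 146 in WT. Cbx3, the gene of HP1γ, stood at 349.7 ± 27.5 in HP1ag_KO against 605 ± 59.7 in WT. Reads of each targeted gene thus remained in the mutants. HP1 proteins were not measured here, so their loss rests on the genotype labels. HP1ag_KO replicate 1 stood apart from the other livers in genes that differ between the sexes. It was the highest of the 9 libraries in 12 of 20 tested genes known to be higher in female liver (11.8% of all tested genes were highest in it). The same library was the lowest in 17 of 19 tested genes known to be higher in male liver (15.46% of all tested genes were lowest in it). Its reads of the Y-linked gene Ddx3y, 3799 after normalisation, lay within the range of 3036 to 4549 over the 9 libraries. The Y-linked genes Eif2s3y (1215 to 1834), Kdm5d (462 to 821) and Uty (826 to 1385) were also read in every library. Xist, the X-inactivation transcript of females, stood at 0.889 to 14.6, and at 5.47 in this liver. All 9 livers thus had the transcripts of male mice.

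In control liver the family spanned levels from abundant transcripts to almost no reads. Per kilobase of exon, Sult1a1, the main phenol sulfotransferase, stood highest of the 10 genes at 3952 ± 765 (SD, n = 3, normalised reads per kb, as in the rest of this paragraph). Sult1d1, which acts on catecholamines and other phenolic amines, followed at 1825 ± 640. Papss2 stood at 1063 ± 51.6 and Sult1b1, which acts on phenols and thyroid hormones, at 382 ± 37.3. The ranges of these 4 genes over the 3 WT livers did not overlap. Sult1c2, a sulfotransferase of phenolic compounds, had 106 ± 29.7 and Sult5a1, an enzyme with no well-established substrate, 72.5 ± 22.0, and their ranges did overlap. Sult1e1, the estrogen sulfotransferase, stood at 2.66 ± 2.89, Sult2a2 at 1.24 ± 1.26, Sult2a1 at 1.23 ± 1.40 and Sult3a1, which acts on amines, at 0.815 ± 0.810, with at least 1 WT liver at 0 for each. The highest Sult transcript of control liver was none of the 10: the gene Sult2a8 (ENSMUSG00000030378, listed under an older symbol) reached 8707 ± 1177. It was picked out after its values were seen.

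**Figure D1:**
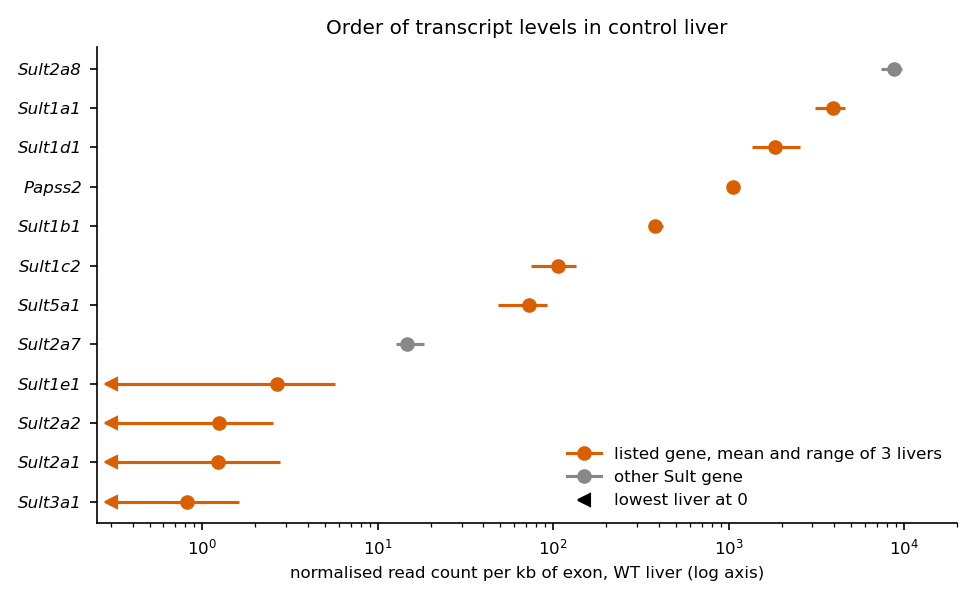
Levels of Sult genes and Papss2 in the 3 WT livers, as normalised read counts per kilobase of exon on a log axis, where points are means, lines run from the lowest to the highest liver, orange marks the 10 chosen genes and grey marks other Sult genes. Sult1a1 (3952) and Sult1d1 (1825) lead the chosen genes, and the lowest liver is at 0 for Sult1e1, Sult2a1, Sult2a2 and Sult3a1.

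Where the genes lie is given in build GRCm38 with GENCODE annotation, each being an annotated protein-coding gene whose exons were counted. Sult1b1 (ENSMUSG00000029269, chromosome 5, 87513339 to 87538195), Sult1d1 (ENSMUSG00000029273, 87554645 to 87569027) and Sult1e1 (ENSMUSG00000029272, 87575969 to 87591594) are neighbours on the minus strand. Gaps of 16449 and 6941 bases separate them. Sult2a2 (ENSMUSG00000070811, chromosome 7, 13733505 to 13779636, plus strand) and Sult2a1 (ENSMUSG00000078798, 13796246 to 13837409, minus strand) lie 16609 bases apart. Sult1a1 (ENSMUSG00000030711) is also on chromosome 7, at 126672865 to 126676432, and its end overlaps the gene Sgf29. Papss2 (ENSMUSG00000024899) lies on chromosome 19 at 32595790 to 32667187, and Sult3a1 (ENSMUSG00000069668) on chromosome 10 at 33857721 to 33879532. Sult1c2 (ENSMUSG00000023122) is on chromosome 17 at 53829637 to 53846339. Sult5a1 (ENSMUSG00000000739) is on chromosome 8 at 123140192 to 123158315, inside the readthrough gene model Gm20388, with which it could share reads.

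The tests covered 13845 genes with a mean of at least 10 normalised reads, among them 6 of the 10 genes here. Sult1e1, Sult2a1, Sult2a2 and Sult3a1 fell below this level and were not tested. In limma with Benjamini-Hochberg adjustment over all genes tested, 0 of the 6 passed an adjusted p of 0.05 in any of the 5 comparisons. limma and edgeR each called 0 of the 13845 genes in every comparison (0% called). Unadjusted, limma gave a p under 0.05 for 2 of the 6 in HP1ag_KO against WT (7.58% of all genes), 1 in HP1a_KO against WT (10.1%), 1 in HP1ab_KO against WT (3.7%), 3 in HP1ag_KO against HP1a_KO (16.2%) and 0 in all 6 mutant livers against WT (6.31%). DESeq2 called 0 of the 6 in HP1ag_KO, HP1a_KO and HP1ab_KO against WT and in all mutant livers against WT (it called 0.715%, 0.643%, 0.0795% and 0.332% of all genes there). In HP1ag_KO against HP1a_KO it called 1 of the 6, Papss2 (3.32% of all genes). The comparisons share libraries, WT in 4 of them, so they are not independent of each other.

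Sult1a1 and Papss2 were the members whose 3 HP1ag_KO livers all lay above the 3 WT livers. Such a gap in the upward direction was seen for 6.46% of all genes tested, and 0 of the 6 had one downward (7.05% of all genes). The comparison asks how liver transcripts differ when HP1γ is missing from the liver beside HP1α. Sult1a1 had 4684, 6932 and 6251 normalised reads in the WT livers and 10468, 7691 and 8201 in HP1ag_KO. The highest WT liver was thus below the lowest HP1ag_KO liver, and the HP1ag_KO liver that stood apart in sex-dependent genes held the highest value. The means were 5955 ± 1153 and 8787 ± 1478 (SD, n = 3 each), a log2 difference of 0.57 ± 0.20 (SE, limma adjusted p = 0.595). Papss2 had 4055, 3733 and 4075 in WT and 6204, 6688 and 4560 in HP1ag_KO. Its WT livers lay close together, and the HP1ag_KO livers spread more widely above them. The means were 3954 ± 192 and 5817 ± 1115, a log2 difference of 0.54 ± 0.23 (limma adjusted p = 0.653). Neither difference passed the test over all genes.

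For the other 4 tested genes the HP1ag_KO and WT livers overlapped. Sult1b1 had 1178, 983 and 1021 in WT and 904, 1363 and 999 in HP1ag_KO, so WT lay inside the HP1ag_KO range. Sult1d1 had 6282, 3332 and 3852 in WT and 4577, 5297 and 3743 in HP1ag_KO, with a log2 difference of 0.06 ± 0.24 (limma adjusted p = 0.972). The WT livers, 1 of them high, spread more widely than the distance between the group means, and the sign of this difference turned when WT replicate 2 (-0.13), WT replicate 3 (-0.03) or HP1ag_KO replicate 2 (-0.06) was left out. Sult1c2 had 138, 201 and 247 in WT and 177, 148 and 174 in HP1ag_KO (log2 difference -0.19 ± 0.22, limma adjusted p = 0.855). That difference ran from -0.42 without WT replicate 1 to -0.0057 without WT replicate 3. Sult5a1 was the most variable of the 6 tested genes, with 407, 215 and 339 in WT and 95.7, 560 and 262 in HP1ag_KO. HP1ag_KO thus held both the lowest and the highest of the 9 livers. The log2 difference of -0.36 ± 0.56 (limma adjusted p = 0.899) became 0.31 without HP1ag_KO replicate 1. With all libraries, DESeq2 put it at -0.061 and edgeR at -0.057.

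**Figure D2:**
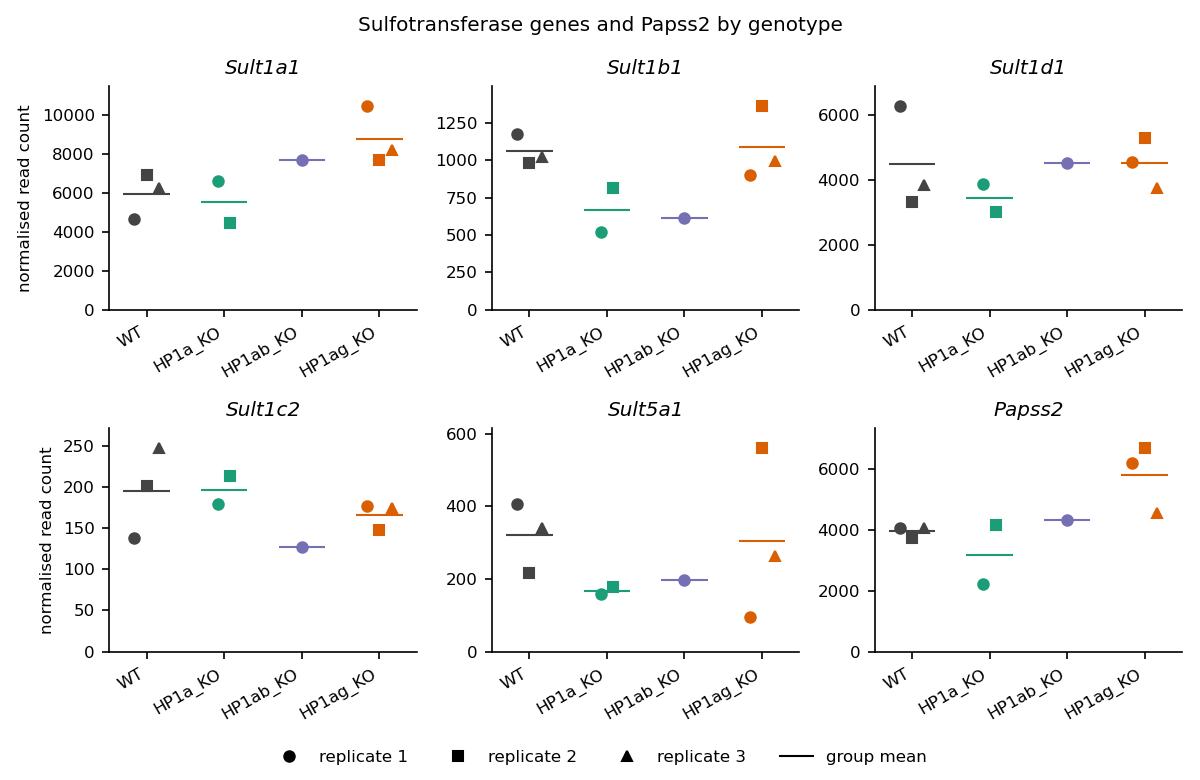
Normalised read counts of the 6 tested genes in each of the 9 livers by genotype, on axes that start at 0; symbols mark the replicate and lines the group means. For Sult1a1 (7691 to 10468) and Papss2 (4560 to 6688) all HP1ag_KO livers lie above all WT livers, and for Sult1b1 the 2 HP1a_KO livers (519 and 812) lie below WT.

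Loss of HP1α alone went with lower values of Sult1b1 and Sult5a1 in both HP1a_KO livers than in any WT liver. This pattern in the downward direction was seen for 15.1% of all genes tested, and 0 of the 6 members had the upward one (14.7%). Sult1b1 had 519 and 812 normalised reads in HP1a_KO against 983 to 1178 in WT. The lower value came from the shallow library, HP1a_KO replicate 1. The means were 666 ± 207 (n = 2) and 1061 ± 104 (n = 3), a log2 difference of -0.70 ± 0.23 (limma adjusted p = 0.452), which shrank to -0.38 without HP1a_KO replicate 1 and grew to -1.02 without HP1a_KO replicate 2. Sult5a1 had 158 and 177 in HP1a_KO against 215 to 407 in WT. The 2 mutant livers were close to each other, and the log2 difference was -0.89 ± 0.63 (limma adjusted p = 0.637). Sult1d1 had 3895 and 3017 in HP1a_KO, overlapping WT, with a log2 difference of -0.33 ± 0.27 (limma adjusted p = 0.680), which ran from -0.52 to -0.06 as single libraries were left out. Sult1a1 (6627 and 4474), Sult1c2 (180 and 213) and Papss2 (2224 and 4158) also overlapped WT. Of the 6 tested genes, 5 had a lower mean log2 value in HP1a_KO than in WT, with a median log2 difference of -0.36 beside -0.00164 over all genes.

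The single HP1ab_KO liver has no replicate check. Sult1b1 stood at 615 normalised reads there, below all WT livers, with a log2 difference of -0.78 ± 0.29 (limma adjusted p = 0.999, taking the lone library to vary like the other groups). Sult1c2 stood at 127 against 138 to 247 in WT (log2 difference -0.58 ± 0.31, limma adjusted p = 0.999), and Sult5a1 at 197. Sult1a1 stood at 7721 and Papss2 at 4333, both above the WT range, while Sult1d1 at 4537 lay inside it. A single liver falls outside the WT range often: 22.6% of all genes were above it and 24.8% below it, and among the 6 members 2 were above and 3 below.

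The comparison of HP1ag_KO with HP1a_KO asks about the added loss of HP1γ. Papss2, Sult1a1 and Sult1b1 were higher in all 3 HP1ag_KO livers than in both HP1a_KO livers, a pattern found for 17.5% of all genes, and Sult1c2 was lower (19.2% of all genes). Papss2 means were 5817 ± 1115 (n = 3) and 3191 ± 1368 (n = 2), a log2 difference of 0.92 ± 0.26 (limma adjusted p = 0.162). DESeq2 on the recovered reads gave 0.88 with adjusted p = 0.0359. Without HP1ag_KO replicate 1 the DESeq2 difference was 0.83 with adjusted p = 0.0860, so the call was lost there. Without the shallow HP1a_KO replicate 1 the DESeq2 difference was 0.50. That fit leaves 1 HP1a_KO liver, so it cannot show whether the call holds. Sult1b1 had means of 1089 ± 242 and 666 ± 207 (log2 difference 0.72 ± 0.23, limma adjusted p = 0.193). Sult1a1 had 8787 ± 1478 and 5551 ± 1522 (log2 difference 0.68 ± 0.23, limma adjusted p = 0.212). Without HP1a_KO replicate 1 the Papss2 and Sult1b1 differences fell to 0.47 and 0.40 in limma, and that of Sult1a1 was 0.96, against 0.39 without HP1a_KO replicate 2. Sult5a1 was higher by a log2 of 0.53 ± 0.63 (limma adjusted p = 0.713), a difference that became -0.077 without HP1ag_KO replicate 2, and which DESeq2 put at 0.88 and edgeR at 0.87. Leaving out HP1ag_KO replicate 1 instead gave DESeq2 calls for Sult5a1 (1.30, adjusted p = 0.0404) and Sult1b1 (0.83, adjusted p = 0.0422), among 493 of the 13845 genes called in that fit. edgeR on the same libraries called neither (adjusted p = 0.207 and 0.182). Without HP1a_KO replicate 1, which leaves 1 HP1a_KO liver, the DESeq2 differences were 0.80 for Sult5a1 and 0.44 for Sult1b1. The median log2 difference of the 6 was 0.60, beside -0.02 over all genes.

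**Figure D3:**
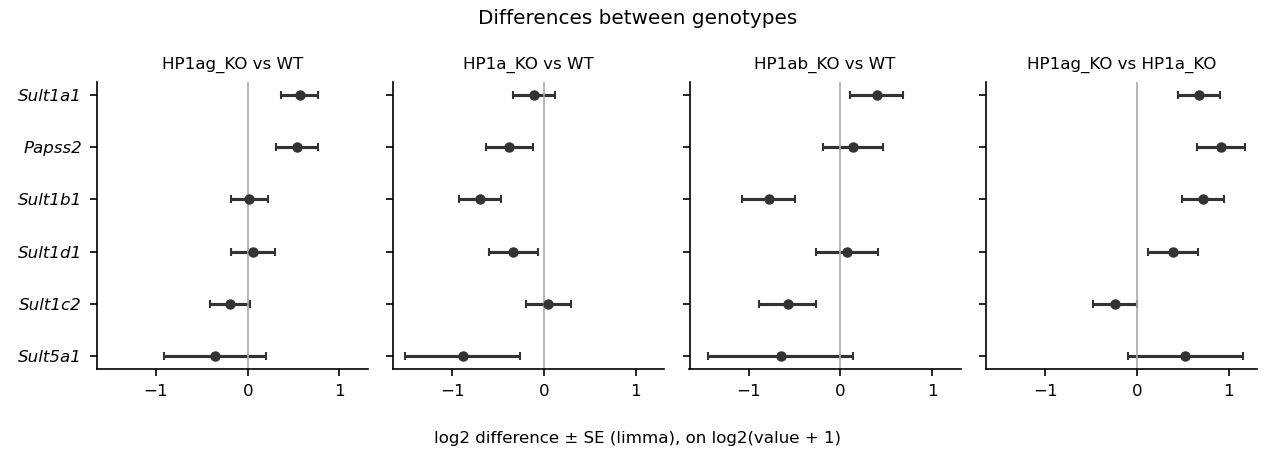
Log2 differences with their standard errors (limma, on log2 of the normalised count plus 1) for the 6 tested genes in 4 comparisons; the grey line marks no difference. Papss2 (0.92), Sult1b1 (0.72) and Sult1a1 (0.68) lie highest in HP1ag_KO against HP1a_KO, and no point passed an adjusted p of 0.05.

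Against WT, the 6 HP1a-/- livers overlapped the controls for all 6 tested genes. Over all genes, 1.4% had every mutant liver higher and 1.74% every mutant liver lower. Sult1b1 showed a log2 difference of -0.35 ± 0.18 (limma adjusted p = 0.801), and of -0.22 without HP1a_KO replicate 1. Its HP1a_KO and HP1ab_KO livers lay below WT and its HP1ag_KO livers around WT.

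The amounts of other cells' transcripts moved in part with the groups. Hepatocyte markers (10 genes) summed to 3218730 to 3968060 normalised reads in WT, 3696010 to 4138980 in HP1a_KO, 3804010 in HP1ab_KO and 3683050 to 3932580 in HP1ag_KO. Kupffer cell and macrophage markers (10 of 11 present, none at 0 in all libraries) summed to 13096 to 15503 in WT, 19406 to 22764 in HP1a_KO, 22349 in HP1ab_KO and 14205 to 20844 in HP1ag_KO. Neutrophil markers (9 genes) summed to 49.6 to 70.5 in WT, 318 to 503 in HP1a_KO, 174 in HP1ab_KO and 37.0 to 220.6 in HP1ag_KO. These sums rest mainly on Prtn3, S100a8 and S100a9, the only 3 at the tested level. Each of the other neutrophil genes stood at 19.9 or less in every library. Stellate cell and fibroblast markers (9 genes) summed to 11808 to 17611 in WT, 18949 to 20358 in HP1a_KO, 18979 in HP1ab_KO and 15896 to 17768 in HP1ag_KO. In HP1a_KO against WT, DESeq2 called Prtn3 (adjusted p = 0.0119), S100a8 (0.00941), Col1a1 (0.00274), Col1a2 (0.0207) and Cd5l (0.0478) of the Kupffer, neutrophil and stellate lists higher. It also called the hepatocyte markers Hnf4a (0.0383) and Trf (0.0158) higher. DESeq2 called 0.643% of all genes there in either direction, and limma called none. Erythroid markers (7 genes) summed to 7334 to 18195 in WT, 11309 to 13307 in HP1a_KO, 20024 in HP1ab_KO and 5407 to 9319 in HP1ag_KO, with all 7 lower in HP1ag_KO than in HP1a_KO. The Kupffer, neutrophil and stellate sums were thus higher in HP1a_KO and HP1ab_KO, where Sult1b1 was lower, and the erythroid sum was lower in HP1ag_KO, where Papss2 was higher than in HP1a_KO. The part of these cells in the sulfation differences was not tested. In whole liver RNA, fewer cells of a type and less RNA per cell cannot be told apart.

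The 4 rarest members were counted as single reads. Sult1e1 had 8, 0 and 3 reads in the WT libraries, 5 and 1 in HP1a_KO, 0 in HP1ab_KO and 8, 8 and 1 in HP1ag_KO, with no group standing apart. Sult2a1 had 0, 1 and 3 reads in WT, 2 and 0 in HP1a_KO, 0 in HP1ab_KO and 6, 4 and 3 in HP1ag_KO. These are 19 reads over 9 libraries. A library at 0 could still hold up to 3 reads, which is 2.40 to 5.50 normalised reads depending on its depth, counting error only.

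Sult3a1 and Sult2a2 were read almost only in 1 liver, HP1ag_KO replicate 1. Sult3a1 had 83 reads there, and the other 8 libraries held 10 in all: 0, 1 and 2 in WT, 0 and 3 in HP1a_KO, 0 in HP1ab_KO, and 3 and 1 in the other HP1ag_KO livers. Sult2a2 had 36 reads in that liver and 11 in the other 8, of which 2 and 2 were in the other HP1ag_KO livers. The same library held 10 of the 11 reads of Sult2a5 and the only read of Sult2a3 and of Sult3a2, genes looked at after these values were seen. Sult2a5 and Sult2a2 matched at 95.7% of 582 aligned coding bases, and Sult3a1 shares stretches with Sult3a2. Reads of these copies may therefore not be separable from those of Sult2a2 and Sult3a1. Other Sult2a genes did not follow: Sult2a7 had 32 of its 189 reads there, and Sult2a8 had its lowest value of the 9 libraries there, 14936 normalised reads against 17267 to 33624. The other HP1ag_KO livers held at most 3 reads of either gene and the WT livers at most 2, so the HP1ag_KO means of 26.7 ± 42.4 for Sult3a1 and 12.3 ± 17.7 for Sult2a2 (SD, n = 3, normalised reads) describe 1 liver. Without it, Sult3a1 stood at 3.36 and 0.946 and Sult2a2 at 2.24 and 1.89.

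**Figure D4:**
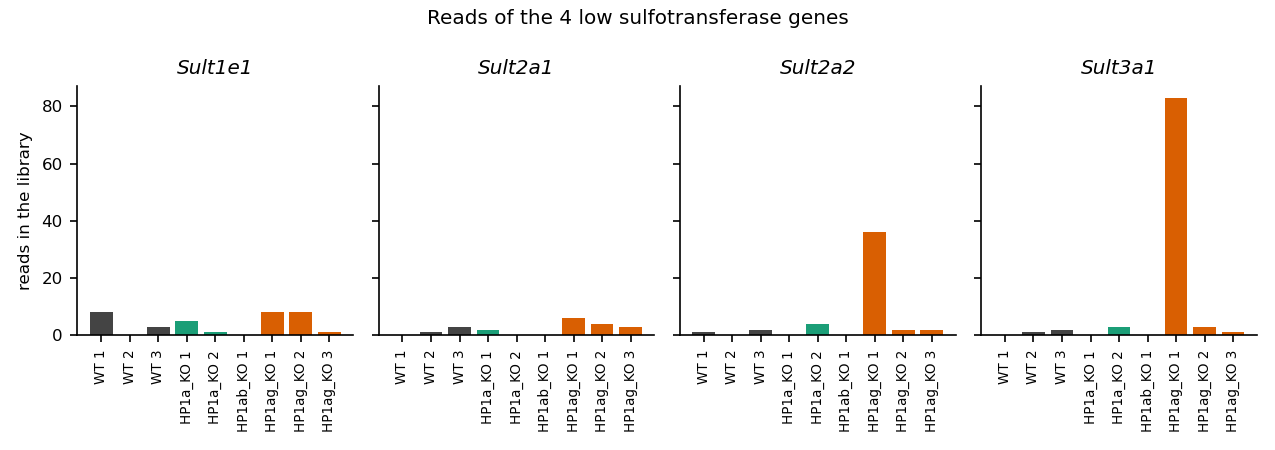
Reads of Sult1e1, Sult2a1, Sult2a2 and Sult3a1 in each of the 9 libraries, as recovered whole reads. HP1ag_KO replicate 1 holds 83 of the 93 reads of Sult3a1 and 36 of the 47 of Sult2a2.

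This liver also stood apart in several genes known to differ between the sexes. For most genes of the female and male lists the mutant group means lay on that side of WT as well. Of 20 tested genes known to be higher in females, 17 had higher mean log2 values in HP1a_KO than in WT (median log2 difference 1.27). In HP1ab_KO 15 did (0.56), and in HP1ag_KO 18 (1.92). Of 19 tested genes known to be higher in males, 15, 16 and 18 had lower mean log2 values in these groups (medians -0.56, -0.48 and -0.85). The HP1ag_KO means include replicate 1. HP1ag_KO replicate 2 was highest in 5 of the male list (14.81% of all genes) and lowest in 2 of the female list (13.86%). WT replicate 1 was highest in 5 of the male list (14.53%) and lowest in 9 of the female list (14.71%). limma called 0 genes of either list. DESeq2 called 2 of the female list in HP1a_KO (Nipal1 and Prlr, the prolactin receptor gene) and 6 in HP1ag_KO. Of the male list it called 0 and 1, beside 0.643% and 0.715% of all genes in these comparisons with WT. Among the 6, Slc22a26 had 2718 normalised reads in HP1ag_KO replicate 1 against 88.6 and 189 in the other HP1ag_KO livers. Prlr had 4807 there against 4715 and 3426. Cyp2b9, a P450 higher in female liver, had 6684 normalised reads in HP1ag_KO replicate 1 and 10.7 to 808 in the other libraries. Cyp4a12a, a P450 higher in male liver, had 134 there, the lowest value, against 963 to 5996 elsewhere. Elovl3, a fatty acid elongase higher in males, had 364 there against 956 to 17453. Not all markers followed: Nipal1, higher in females, had 854 in this liver but 1330 in HP1a_KO replicate 1, and Selenbp2, higher in males, had 3285 in it but 653 in HP1a_KO replicate 2. Sult5a1 was lowest in HP1ag_KO replicate 1 at 95.7, and highest in HP1ag_KO replicate 2 at 560, the liver that also held the highest Elovl3 and Cyp4a12a. Replicate 2 was highest in only 5 of the 19 male genes. Selenbp2 stood at 4606 in it against 25929 to 37856 in WT, and Susd4, also of the male list, at 55.0 against 146 to 559. The part of sex-dependent expression in these Sult values was not tested. The labels do not give the sex of the mice, but all 9 libraries held Y-linked transcripts.

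**Figure D5:**
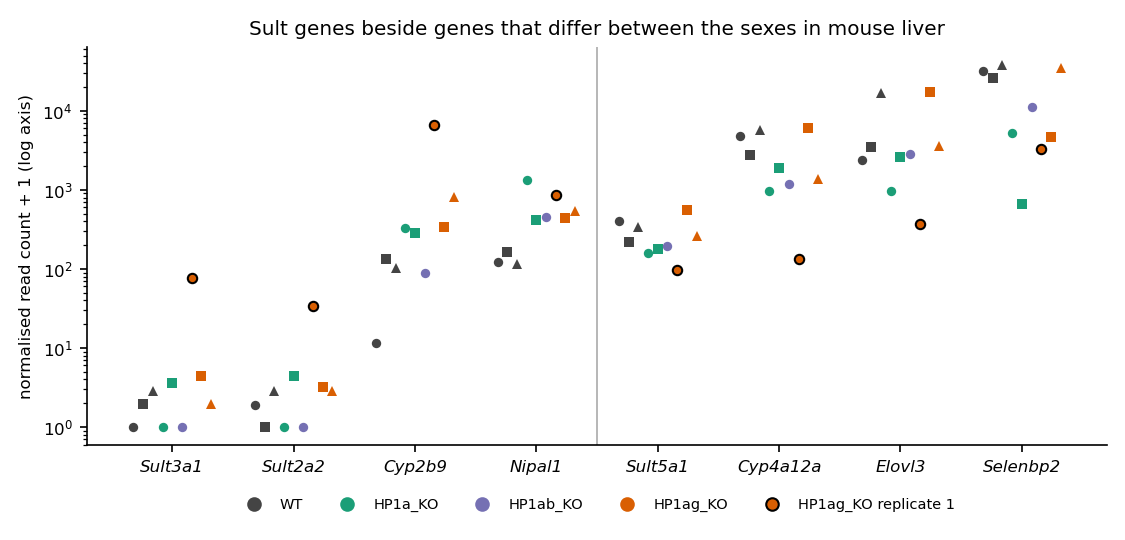
Normalised read counts plus 1 on a log axis in each liver for Sult3a1 and Sult2a2 beside Cyp2b9 and Nipal1, which are higher in female liver (left of the line), and for Sult5a1 beside Cyp4a12a, Elovl3 and Selenbp2, which are higher in male liver (right). HP1ag_KO replicate 1, outlined in black, is the highest liver for Sult3a1, Sult2a2 and Cyp2b9 and the lowest for Sult5a1, Cyp4a12a and Elovl3.

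The sequence before the Sult3a1 start is shown because the reads of this gene were concentrated in 1 liver. It covers the 250 bases upstream of the RefSeq start, build GRCm38.p6, chr10:33857472-33857721, plus strand. Capitals mark the only match among 7 motifs searched on both strands.

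Sult3a1: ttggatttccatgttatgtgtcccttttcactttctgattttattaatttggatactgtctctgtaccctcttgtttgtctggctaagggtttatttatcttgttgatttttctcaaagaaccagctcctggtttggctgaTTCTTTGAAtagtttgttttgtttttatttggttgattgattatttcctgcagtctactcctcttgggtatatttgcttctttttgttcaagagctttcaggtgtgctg

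The capitals, TTCTTTGAA, match TTCNNNGAA, the form bound by STAT5, a factor activated by growth hormone, with the first base 109 before the start (position -109). This motif occurs in 7.02% of 32851 promoters of the same length. The other motifs were TATAAA (12.4% of promoters), TGTTTAC of forkhead factors (3.17%), CAAAGTCCA of HNF4 (0.384%), TTGCGCAA of C/EBP factors (0.164%), a palindromic HNF1 motif (0.00913%) and an inverted repeat of the nuclear receptor element (0%). With a single match, motifs could not overlap here. RefSeq promoters were found for 8 of the 10 genes, with none for Sult2a1 and Sult2a2, and the other 7 held no match to any of the 7 motifs. A match is a string of letters and not a measured site.

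The members did not vary as a block over the 9 livers. The ratio of the highest to the lowest liver was 5.85 for Sult5a1, a log2 range wider than that of 95.4% of tested genes. It was 3.01 for Papss2, 2.62 for Sult1b1, 2.34 for Sult1a1, 2.08 for Sult1d1 and 1.95 for Sult1c2, the last wider than 64.4% of tested genes. Pearson correlations between members over the 9 libraries, which share genotypes and scaling, ran from -0.73 (Sult1c2 with Sult1d1) to 0.68 (Sult1b1 with Papss2). Sult1b1 and its chromosome 5 neighbour Sult1d1 had 0.37.

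Among 10687 well-read genes, the profiles most like the 3 most variable of the 6 tested genes were these, given as descriptions over 9 libraries. For Sult5a1 they were Otc, a urea cycle enzyme (Pearson correlation 0.96), the glucocorticoid receptor gene Nr3c1 (0.959), C4a (0.958), Agxt2 (0.958) and Slco2b1 (0.957). For Papss2 they were Mettl3, an RNA methyltransferase (0.964), Slc16a11 (0.943), Tstd1 (0.941), Maob (0.94) and Fam167b (0.932). For Sult1b1 they were Gpr19 (0.973), Armc8 (0.966), Cmtr1 (0.955), Trappc12 (0.943) and Exoc3 (0.942). No p is given for these values, since the genes were found by searching for high ones.

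Genes that supply the sulfate donor came from lists on the pathway. Genes of sulfate activation, transport and removal of the by-product PAP came to 7 tested. In HP1ag_KO, 1 had a higher and 6 a lower mean log2 value than in WT. The median log2 difference was -0.06, and 0 were called by limma or DESeq2. Papss1, the other PAPS synthase, had 382 ± 49.0 normalised reads in WT and 403 ± 202 in HP1ag_KO. Its HP1ag_KO livers held 296, 636 and 276, and its log2 difference was -0.03. Slc35b2, which carries PAPS into the Golgi, had 937 ± 109 and 901 ± 135. Bpnt1, which degrades PAP, had 2145 ± 269 and 1922 ± 210. Of 10 tested genes that make inorganic sulfate from cysteine or share its path, 7 had higher and 3 lower means in HP1ag_KO than in WT (median 0.07 beside -0.01 over all genes), with 0 called. Against HP1a_KO all 10 had higher means in HP1ag_KO (median 0.28 beside -0.02 over all genes). There only Cth, which makes cysteine from cystathionine, was called, by DESeq2 alone, with 8909 ± 1535 against 5374 ± 95.3 and a limma log2 difference of 0.71 ± 0.16 (DESeq2 adjusted p = 0.00416, limma 0.140; DESeq2 called 3.32% of all genes). The DESeq2 difference of Cth was 0.74 with all libraries and 0.76 without HP1a_KO replicate 1. That second fit leaves 1 HP1a_KO liver, so it cannot show whether the call holds.

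Sulfatases remove sulfate groups, and of 10 tested sulfatases and sulfatase activators 8 had lower means in HP1ag_KO than in WT. Arsa, a lysosomal sulfatase, had 672 ± 126 against 1176 ± 200 normalised reads, a limma log2 difference of -0.81 ± 0.17 (DESeq2 adjusted p = 0.0122, limma 0.394). Without HP1ag_KO replicate 1 the DESeq2 adjusted p was 0.0911. Against HP1a_KO the Arsa difference was -0.92 ± 0.19 (DESeq2 adjusted p = 0.00472, limma 0.133). The DESeq2 difference was -0.90 with all libraries and -0.83 without HP1a_KO replicate 1. That second fit leaves 1 HP1a_KO liver, so it cannot show whether the call holds. Glucuronidation, the other large conjugation path of the liver, had 15 of 19 tested genes lower in mean log2 value in HP1ag_KO than in WT. The median was -0.36, against 0.04 for the 6 sulfation genes and -0.01 for all genes. DESeq2 called 4 of the glucuronidation genes lower (0.715% of all genes were called in either direction). The one with the smallest p was Ugt2b35, at 3227 ± 316 against 6251 ± 1056, a limma log2 difference of -0.95 ± 0.15 (DESeq2 adjusted p = 5.7e-05, limma 0.232). The low glucuronidation values were not particular to HP1ag_KO. Against WT, 15 of the 19 genes were also lower in HP1a_KO (median -0.27) and in the single HP1ab_KO liver (-0.26). Between HP1ag_KO and HP1a_KO, 10 were higher and 9 lower (median 0.02). Whether the sulfatase and glucuronidation lists differed from the sulfation genes was not tested.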

How the data were processed

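RNA was extracted with Trizol from flash-frozen liver and made into ribosomal-RNA-depleted, strand-specific libraries, per the labels' protocols. The deposited table holds one signal per gene and library, the reads divided by 1 size factor per library. Tools listed, without roles, per the submitters' processing notes are HTSeq 0.5.4p3, DESeq2 1.0.19, Bowtie2 2.1.0, TopHat2 2.0.10 and CASAVA 1.8.2, with build mm10. Not given in the sources used here are the annotation release, the strand setting and the handling of reads that match several genes. Whole reads were recovered from the steps of the values, and 100% of values came out whole within 0.1 read.

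The main test was limma 3.58.1 in R 4.3.3, run on log2(value + 1) with a mean trend, so differences of low genes are understated. It was fitted to genes with a mean of at least 10, with the 4 groups in one model (5 residual degrees of freedom), two-sided, and adjusted by Benjamini-Hochberg over all genes at 0.05. edgeR 4.0.16 and DESeq2 1.42.0 on recovered reads were alternatives, beside other pseudocounts, filters, scalings and left-out libraries. The scripts were tested on simulated data. The contrast of all 6 mutant livers with WT weights each liver equally.

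Named are the listed members, the deleted genes, preset sulfate and sex marker genes, genes called in a fixed list (up to 4 per list and comparison) and the 5 most similar profiles of the 3 members with the widest range. Members, lists and rules were chosen with earlier results of these data known, and the single differences printed were picked after the fitted values were seen. Coordinates and exon lengths come from GENCODE vM21 and promoters from RefSeq GRCm38.p6. Sult1c1, Sult2a4, Sult2a6 and Sult6b2 were not analysed here. The list of nuclear receptors and related factors is not reported here.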

Additional observations from a re-analysis of the deposited data

How the results depend on the processing

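limma called 0 of the 6 tested genes under every pseudocount, filter, scaling, trend and left-out library tried, and the counts without single replicates ran from 0 to 0 in all 5 comparisons. DESeq2 on recovered reads called 1 in HP1ag_KO against HP1a_KO (Papss2) and 2 without HP1ag_KO replicate 1 (Sult1b1 and Sult5a1). It called 459 and 493 of all 13845 genes in these fits. Without HP1a_KO replicate 1 only 1 liver is left in that group, so calls of that fit are not given. The DESeq2 and edgeR fits without single libraries were chosen after seeing the data. The sign of the Sult5a1 difference turned in HP1ag_KO against WT without HP1ag_KO replicate 1 (0.31 in limma, in a leave-one-out range of -0.96 to 0.31, 0.37 in DESeq2 and 0.36 in edgeR). It turned in HP1ag_KO against HP1a_KO without HP1ag_KO replicate 2 (-0.077, range -0.077 to 1.19). That of Sult1d1 in HP1ag_KO against WT turned without WT replicate 2 (-0.13), WT replicate 3 (-0.03) or HP1ag_KO replicate 2 (-0.06), in a range of -0.13 to 0.33. The cause was not tested. Scaling to equal totals moved library medians by -0.05 to 0.12 on the log2 scale. It turned the sign of no single-gene difference that was refitted with it. The small Papss1 difference and the list medians were not recomputed, so their signs under this scaling are not known. Over all genes in HP1ab_KO against WT, limma called 0 and, with no filter on low values, 54. DESeq2 called 99, 89, 11, 459 and 46 genes in the 5 comparisons, in the order of the report, where limma called 0 in each. No paired analysis by replicate number was run, because the labels give animal numbers and no replicate numbers. Some animal numbers neighbour each other, and what that means is not stated. Between 2 such neighbour pairs the HP1ag_KO minus WT log2 difference was 0.74 and 0.24 for Sult1a1, 0.61 and 0.29 for Papss2, 0.25 and 0.17 for Sult1d1, -0.48 and -0.21 for Sult1c2, -0.17 and 0.02 for Sult1b1 and -1.81 and 0.28 for Sult5a1. A limma fit with a term for runs of numbers used only the HP1ag_KO livers and WT replicates 2 and 3. It gave 0.40 for Sult1a1, 0.50 for Papss2, 0.27 for Sult1d1, -0.44 for Sult1c2 and -0.19 for Sult5a1 (adjusted p from 0.919 to 0.987). Leaving out WT replicate 1 without such a term gave 0.40, 0.56, 0.33, -0.42 and -0.16 for the same genes. The effect of the term is thus not separated from that of the missing livers. A fit of only the groups compared was not run for all mutant livers against WT, which uses every library, and HP1ab_KO against WT has no value without its only library.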
